A study of Homo sapiens with 19 samples.

Results

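In C4-2 prostate cancer cells 9146 intervals were called for the retinoblastoma protein RB. Of these, 425 lay at a site with an RB interval in VCaP cells and an interval of V5-tagged E2F1 K185R. An interval is a call, and whether the protein was bound there was not tested. A C4-2 RB interval was taken as a member when it overlapped an RB interval of VCaP and an interval of at least 1 of the 4 K185R V5 lists, by 1 base or more each. Of the 9146 RB intervals, 5420 met the VCaP criterion, and 425 of these (7.84%) met both, whether or not an interval of wild-type (WT) E2F1 was present. Over all 9146, 13.4% had a K185R interval. The K185R intervals and the RB intervals chose the members, so their presence there is a description and was not tested. The 4 WT lists played no part in the choice.

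RB, a member of the pocket protein family, represses E2F target genes by binding the E2F factor on them, and many of these genes serve DNA replication and the cell cycle. E2F1 binds DNA as a dimer with a DP protein. K185 is a lysine of E2F1 known as a residue that the methyltransferase SET7/9 methylates and the demethylase LSD1 (KDM1A) clears, and K185R puts an arginine in its place. GSK2879552 is an irreversible LSD1 inhibitor, and V5 is a short peptide tag through which the introduced E2F1 was precipitated.

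RB was mapped by chromatin immunoprecipitation and sequencing without treatment in C4-2 (2 libraries) and in VCaP (1 library). Both are established prostate cancer lines, and all cells were kept in medium with charcoal-stripped serum. C4-2 derives from LNCaP and grows without androgen, and VCaP comes from a vertebral metastasis. V5 was mapped in C4-2 lines carrying tetracycline-controlled E2F1, WT or K185R, in 4 treatments with 2 libraries each. These were no treatment, doxycycline at 0.25 ug/ml for 3 days, GSK2879552 at 50 uM for 24 hours, and doxycycline for 3 days before GSK2879552 for 24 hours. Doxycycline is the usual inducer of such a construct. The sources used here do not say whether the tagged protein was present without it, nor whether each line was 1 clone. The interval names of the V5 lists read siNTC and siRB where the labels read untreated and doxycycline, and the groups below follow the labels. In the C4-2 RB list the interval names hold a single library's name, so that list, which defines all members, may rest on 1 of the 2. Each group is represented by 1 interval list, so no value below has a replicate error, and Wilson intervals cover counting error over sites only. Sites are not replicates of a condition, and whether the libraries of a group came from separate cultures is not stated.

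The 8 V5 lists held between 2805 and 64025 intervals at depths of 0.716 to 1.79 reads per kilobase, against 8.21 for RB in C4-2 and 2.98 in VCaP. Reads at each summit and the local background under it were solved from the deposited fold enrichment and p-value. The largest summit of each list held 1.85 to 2.00 times as many reads as the smallest interval of that list is wide in bases. In all 10 lists that largest summit lay at a member. Gene names, gene starts and sequence are not given here, because an annotation and a genome of the build hg19 were not used. Regions are named by their hg19 position.

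The 425 sites fell into groups by local background. Of them, 157 (36.9%, 95% Wilson interval 32.5 to 41.6) lay on a local background of 10 times the genome-wide floor of the C4-2 RB list or more, here called high background. Among all C4-2 RB intervals the share was 4.78%, and among those shared with VCaP 3.45%. The other 268 sites had low background, with a median of 2.41 times the floor against 36.1 at the high-background sites. RB reads at the summit had a median of 115 at high-background sites and 20 at low-background sites. The fold enrichment went the other way, with a median of 3.92 at high and 7.18 at low background. Reads and background were solved from this same fold and its p-value. The reads and folds of the 2 groups are thus tied to the split and describe it only.

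**Figure D1:**
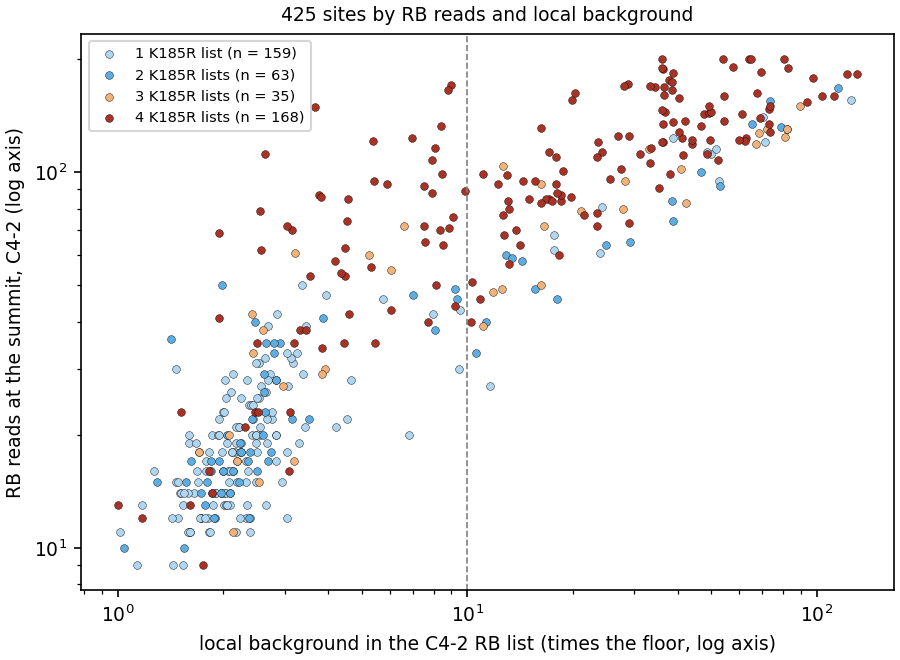
Each point is one of the 425 sites, placed by its local background in the C4-2 RB list (times the floor, log axis) and its RB reads at the summit (log axis), and coloured by the number of K185R V5 lists with an interval there. The dashed line marks 10 times the floor, and the 168 sites with an interval in all 4 K185R lists have a median of 99 RB reads.

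High-background sites crowded together. Another member lay within 10 kb of 147 of the 157 high-background sites (93.6%) and of 36 of the 268 low-background sites (13.4%). On each chromosome the longest stretch without an interval in any of the 10 lists was located, 3000289 to 30001762 bases long on the nuclear chromosomes. Of the high-background sites, 136 (86.6%) lay within 1 Mb of that stretch, at a median distance of 29438 bases. Among all 437 high-background C4-2 RB intervals the share was 83.5%, so this closeness is not shown to be particular to the members. High-background RB sites that VCaP lacked gave 89.2% of 167 with a V5 interval and 74.7% of 83 without one. Those of both lines gave 50.0% of 4 with V5 in WT only and 61.5% of 26 with no V5. Of the low-background sites 29 (10.8%) lay within 1 Mb of the stretch, against 5.34% of all low-background C4-2 RB intervals. Low-background RB sites that VCaP lacked gave 29.6% with a V5 interval and 4.61% without one. Those of both lines gave 0.885% with V5 in WT only and 0.839% with no V5. Over both backgrounds the share was 9.08% of all C4-2 RB intervals and 4.15% of those shared with VCaP. At a spacing of up to 10 kb the 425 sites formed 285 clusters, of which 242 held 1 site and 11 held 5 sites or more. These 11 clusters took in 105 sites, so neighbouring members are not separate observations. The largest ran on chromosome 2 from 92269063 to 92325330 with 22 sites, 19 of them of high background. It was followed by 16 sites on chromosome 10 from 42384471 to 42409431 and 13 sites on chromosome 16 from 46386614 to 46421936.

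The high-background regions with the most significant RB intervals carried V5 intervals in all 8 lists. On chromosome 1 at 121484057 to 121485436, RB in C4-2 gave 200 summit reads on a background 36.1 times the floor. K185R V5 reads there were 302 without treatment, 331 after doxycycline, 343 after GSK2879552 and 355 after both. WT V5 reads were 317, 345, 363 and 353 in the same order, which is kept below. These are the largest summits of their lists. They held 1.85 to 1.99 reads per base of the smallest interval of their list. That interval was 152, 168, 176 and 190 bases wide for K185R and 161, 174, 194 and 191 for WT. The part of this width in the order of the reads was not tested. On chromosome 2 at 92291379 to 92291647, RB gave 162 reads, K185R V5 145, 114, 104 and 90, and WT V5 106, 127, 71 and 92. There the raw reads of both proteins were lower with GSK2879552 than without it. The lists with GSK2879552 were also the shallower ones for each protein, and these reads are not scaled for depth. The interval on chromosome 10 at 42529283 to 42529641 had 156 RB reads. Its K185R reads were 149, 131, 137 and 116 and its WT reads 124, 153, 109 and 118. Both regions on chromosome 11, at 51582650 to 51583013 (172 RB reads) and 51590842 to 51591193 (170 RB reads), likewise had an interval in each V5 list.

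Among the 268 low-background sites, 61 had an interval in all 4 K185R lists, and 54 of these had one in all 4 WT lists too. Over all C4-2 RB intervals, 5.18% had an interval in all 4 K185R lists and 4.23% in all 8, and over those shared with VCaP 3.1% and 2.8%. These shares include RB intervals without any K185R interval, which the rule left out of the members, so they are not like for like. Over all C4-2 RB intervals 1227 had a K185R interval and 474 had one in all 4 lists. Among the members of either background these counts were 425 and 168. RB reads at the 61 sites had a median of 62 and ranged from 9 to 171. The most significant RB interval of this group lay on chromosome 3 at 196625598 to 196625816, with 149 RB reads in C4-2, 35 in VCaP and a C4-2 fold of 37.4. K185R V5 reads there were 150, 147, 137 and 141, in that order. WT V5 reads were 144, 156, 136 and 140. The highest of the 8 V5 values was 1.15 times the lowest, while the depths of the 8 lists spanned a ratio of 2.50. A spread below that ratio was common, at 132 of the 152 members in all 8 lists and at 38 of the 54 of low background. The median spread was 1.72 over the 152 and 1.99 over the 54.

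Of the 10 regions named in this group, 5 lay on chromosome 9. Low background here means under 10 times the floor, and several of the 10 regions were over 5 times. On chromosome 9 the RB background was 8.99, 8.77, 2.63, 8.42 and 8.06 times the floor, in the order given below. It was 3.67 at the chromosome 3 region above, and 3.76 and 2.55 at the regions on chromosomes 1 and 8 below. At 66970971 to 66971460 RB gave 171 reads, K185R V5 193, 178, 182 and 156, and WT V5 190, 199, 143 and 164. At 69710667 to 69711368 RB gave 165 reads, K185R V5 205, 179, 176 and 158, and WT V5 164, 206, 142 and 160. V5 summits at both thus ran from 142 to 206 reads, although the V5 lists were shallower than the RB list. The region at 44070638 to 44070832 gave 112 RB reads, with V5 reads between 68 and 98. Those at 66833754 to 66834042 and 67320254 to 67320958 gave 133 and 116 RB reads, with V5 reads of 73 to 119 and 93 to 141. Chromosome 2 at 92281231 to 92281563 (123 RB reads) and chromosome Y at 13842616 to 13842857 (121 RB reads) had V5 reads of 59 to 100 and 114 to 155. Their RB backgrounds were 6.93 and 5.37 times the floor. The chromosome 2 region lay inside the largest cluster, whose sites were mostly of high background.

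V5 summits were much lower at other sites of this group. On chromosome 1 at 91852748 to 91853184 RB gave 87 reads, K185R V5 23, 16, 13 and 10, and WT V5 22, 17, 22 and 13. On chromosome 8 at 70602274 to 70602609 RB gave 79 reads, K185R V5 23, 16, 8 and 12, and WT V5 16, 14, 21 and 10. Chromosome X at 108297351, chosen after its values were seen, had 62 RB reads and V5 reads of 6 to 11. Although the RB background was low, 36 of the 61 sites had a V5 interval of high background by the measure of its own list. Among the 207 low-background sites with 1 to 3 K185R lists, 14 did.

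**Figure D2:**
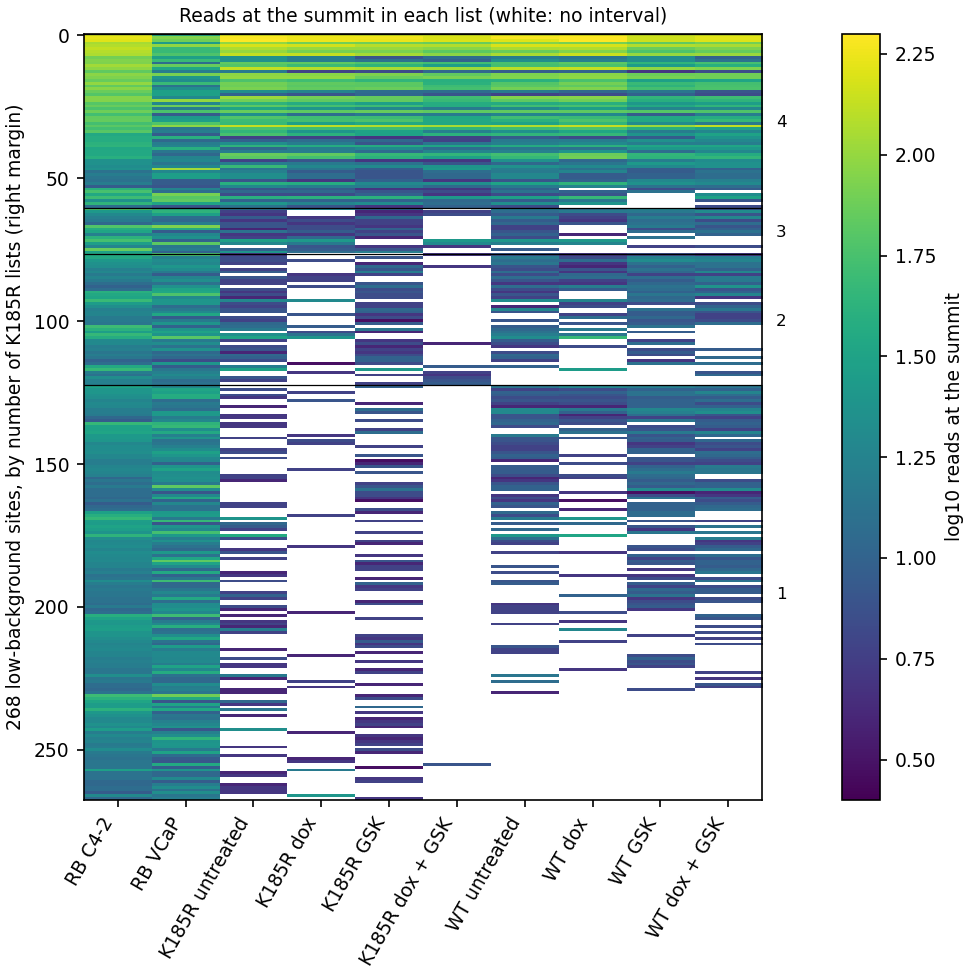
Each row is one of the 268 low-background sites, ordered by the number of K185R V5 lists with an interval (right margin) and then of WT lists, and each column is a list. Colour gives the reads at the summit (log10), white marks no interval, and the top block holds the 61 sites with an interval in all 4 K185R lists.

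The larger part of the low-background sites, 207 of 268, had an interval in 1 to 3 K185R lists. These sites were spread out, with 12 of 207 within 10 kb of another member and 11 of 207 within 1 Mb of the interval-free stretch. In all, 145 sites had an interval in 1 K185R list alone. That list was the GSK2879552 list for 66 sites, the untreated list for 61, the doxycycline list for 17 and the list with both agents for 1. The most frequent pair was untreated with GSK2879552, at 25 sites. V5 summits were shallow here, with a median of 6 reads in the untreated and the GSK2879552 K185R lists and 7 in the others. In the untreated K185R list 38 of 112 such intervals rested on 5 reads or fewer, and in the GSK2879552 list 42 of 114. A site missing from a list was not called there, and at this depth it cannot be called unbound.

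Examples of this group with strong RB were the following, chosen after their values were seen. On chromosome 22 at 20104776 to 20105134 RB gave 61 reads in C4-2 and 86 in VCaP. K185R V5 reads there were 8 untreated, 7 with doxycycline and 5 with GSK2879552. WT V5 gave 6 untreated, 15 with GSK2879552 and 8 with both. On chromosome 9 at 79186618 to 79186917 RB gave 50 reads, untreated K185R 12 and doxycycline K185R 9, and the WT intervals were those of the untreated list (9 reads) and the GSK2879552 list (13 reads). On chromosome 13 at 110076473 to 110076711 RB gave 36 reads, K185R 5 reads untreated and 5 with both agents, and WT 8, 5, 7 and 5. The V5 summits at these sites held between 5 and 15 reads.

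No WT list had an interval at 41 of the 268 low-background sites and at 10 of the 157 high-background sites. Of the 41, 37 had an interval in 1 K185R list only. The most significant RB interval among them lay on chromosome 11 at 125495609 to 125496304, with 50 RB reads in C4-2 and 77 in VCaP, but its V5 interval, in the GSK2879552 list of K185R, rested on 4 reads. Chromosome 22 at 41864393 to 41864713 (42 RB reads) had 7 reads in that same list. Chromosome 12 at 57081976 to 57082421 (28 RB reads) had 11 reads in it. The untreated K185R list gave 11 reads on chromosome 17 at 41381720 to 41382348 (33 RB reads) and 5 reads on chromosome 7 at 50517830 to 50518205 (28 RB reads). All of these K185R intervals were thus called from 4 to 11 reads in 1 list.

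By treatment, the K185R intervals at low-background members were fewer in the lists with doxycycline. The untreated K185R list had an interval at 173 of 268 sites (64.6%), the GSK2879552 list at 175 (65.3%), the doxycycline list at 105 (39.2%) and the list with both at 76 (28.4%). At high-background members the counts were 151, 127, 137 and 118 of 157. The depths of these lists were 1.79 reads per kilobase for the untreated one, 1.12 with doxycycline, 1.02 with GSK2879552 and 0.838 with both, and the part of depth in the counts was not tested. Between the untreated and doxycycline lists, 81 low-background sites had both intervals, 92 the untreated one alone and 24 the doxycycline one alone. Between the GSK2879552 list and the list with both agents, 68 had both, 107 the GSK2879552 one alone and 8 the other alone. Over all C4-2 RB intervals the 4 lists were present at 11.4%, 8.53%, 9% and 6.07%, in the order untreated, doxycycline, GSK2879552 and both. Over those shared with VCaP they were present at 5.98%, 4.46%, 5.57% and 3.58%. The members were chosen by these lists, so the values describe them and carry no test. At the 207 sites with 1 to 3 K185R lists the K185R shares are also set by the choice of sites that lack at least 1 of these lists.

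**Figure D3:**
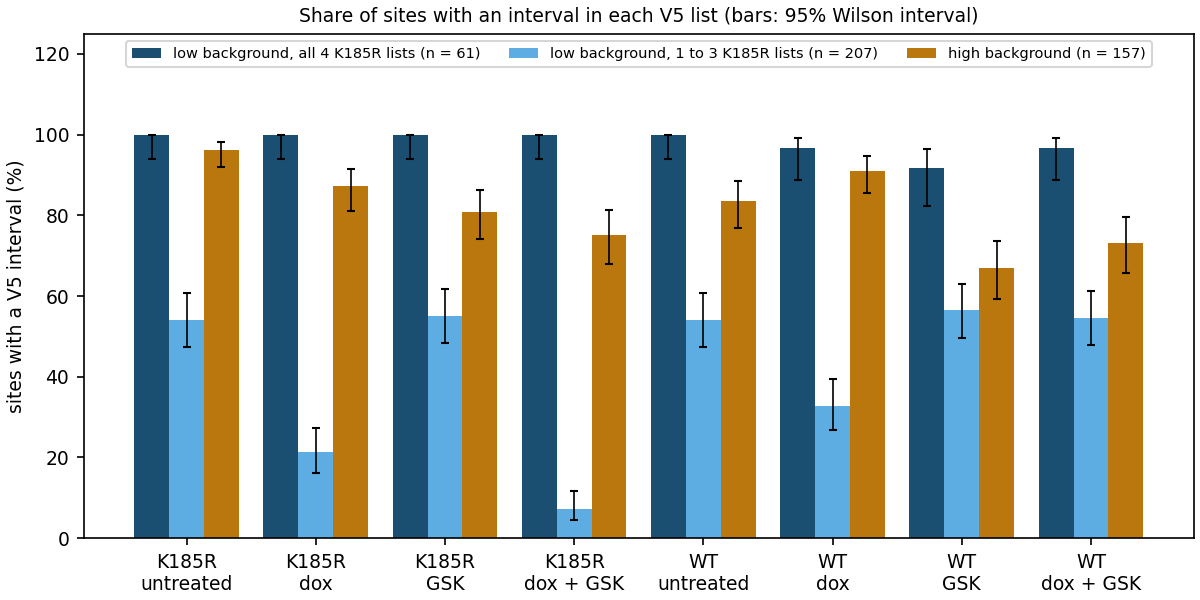
Bars give the percentage of sites with an interval in each V5 list (dox, doxycycline; GSK, GSK2879552) for low-background sites with all 4 K185R lists (100% there by choice), low-background sites with 1 to 3, and high-background sites. Error bars are 95% Wilson intervals over sites, and the WT shares of the 207 low-background sites with 1 to 3 lists run from 32.9% to 56.5%.

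WT E2F1, which was not used to choose the sites, had an interval at most of them. At least 1 WT list had an interval at 374 of the 425 members (88.0%, 95% Wilson interval 84.6 to 90.8), against 23.7% of all C4-2 RB intervals and 21.6% of those shared with VCaP. Among RB sites of both lines without a K185R interval the share was 795 of 4995 (15.9%, 14.9 to 17.0). At low background it was 227 of 268 members (84.7%) and 791 of 4965 others (15.9%). The order held at each RB strength. With up to 14 RB reads the shares were 76.3% of 59 low-background members and 10.2% of 2630 others. With 15 to 24 reads they were 83.3% of 102 and 20.2% of 1887, and from 25 reads 90.7% of 107 and 31.9% of 448. All 4 WT lists had an interval at 187 members (44.0%) and at 18 of the 4995 others (0.360%), against 5.59% of all C4-2 RB intervals and 3.78% of those shared with VCaP. At C4-2 RB sites that VCaP lacked and that had V5 of either protein, 1002 of 1103 (90.8%) had a WT interval. Some of these sites were chosen by that WT interval. A high WT share is thus not shown to be particular to the members. V5 lists of either protein share antibody and cell line, and what part of the overlap comes from the tagged protein was not tested.

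List by list, WT intervals lay at 304 members in untreated cells (71.5%), at 270 after doxycycline (63.5%), at 278 after GSK2879552 (65.4%) and at 287 after both (67.5%). Over all C4-2 RB intervals these lists were present at 14.1%, 11.8%, 12.5% and 13.9%, and over those shared with VCaP at 10.8%, 7.18%, 11.7% and 13.3%. The mean over the lists with GSK2879552 was 66.5% and without it 67.5%, a difference smaller than that between the lists on either side (two-sided exact permutation p = 1, 6 splits of 4 lists, which cannot give less than 0.333). At low-background members the WT counts were 173, 127, 173 and 172 of 268, so the doxycycline list was the low one, and the means were 64.4% with and 56.0% without GSK2879552. Without RB sites and V5 intervals of high background, the share of members with an interval in the WT doxycycline list was 38.3% in place of 63.5%. Under no treatment, 135 low-background sites had an interval of both proteins, 38 of K185R alone and 38 of WT alone. With both agents the counts were 66, 10 and 106. Over all C4-2 RB intervals the K185R list with both agents was present at 6.07% and the WT list at 13.9%. Over those shared with VCaP the values were 3.58% and 13.3%. Without treatment the K185R and WT lists were present at 11.4% and 14.1% of all, and at 5.98% and 10.8% of those shared. The same split into both and alone is not given over all RB intervals. Of the K185R intervals at low-background members, 73.1% to 86.8% had a WT interval in the list of the same treatment. Of the WT intervals, 38.4% to 78.0% had a K185R one, the lowest value being that with both agents.

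**Figure D4:**
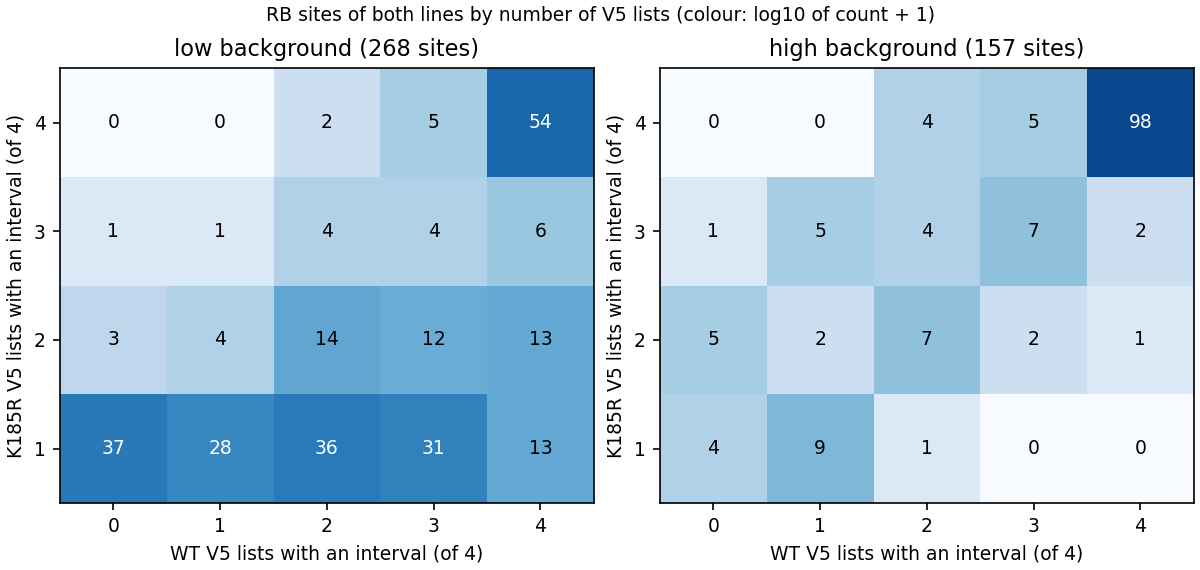
Cells count the sites by the number of K185R lists (vertical) and WT lists (horizontal) with an interval, for 268 low-background sites (left) and 157 high-background sites (right), with colour on a log10 scale. In the right panel 98 sites have an interval in all 8 lists, and in the left panel 54 sites do while 37 have 1 K185R list and no WT list.

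Summit reads of WT E2F1 were compared with and without the LSD1 inhibitor. Among low-background members with an interval in all 4 WT lists, 53 had a WT local background under 10 times the floor in every list, a grouping chosen after the data had been seen. At 18 of the 53 (34.0%) both GSK2879552 lists had more summit reads than both lists without it, and at 8 both had fewer. Over the 511 C4-2 RB intervals in all 4 WT lists the shares were 9.39% higher and 61.3% lower. At the 33 low-background members with a high WT background the counts were 0 higher and 31 lower, and at the 101 high-background members 4 higher and 72 lower. Other RB sites of low background gave values on both sides of the members. Of the 18 sites of both lines with V5 in WT only, 7 were higher (38.9%) and 0 lower, and of the 112 C4-2 sites that VCaP lacked with low RB and WT background, 19 were higher (17.0%) and 47 lower. The lists with GSK2879552 were the shallower ones, 0.716 and 0.81 reads per kilobase against 1.21 and 1.40. Their smallest intervals were wider, 194 and 191 bases against 161 and 174. With reads divided by the floor of each list, which takes in both, 36 of the 53 sites were higher and 1 lower, against 47% higher and 8.02% lower over the 511. On that scale the direction turned at the other members, with 15 higher and 2 lower of the 33, and 53 higher and 3 lower of the 101. It gave 15 higher and 0 lower of the 18 sites with V5 in WT only, and 53 higher and 11 lower of the 112. Each site had to be called in all 4 WT lists. The WT lists with GSK2879552 held the fewest intervals, 2805 and 3874 against 15099 and 64025. Their intervals had medians of 6 and 5 reads on floors of 0.139 and 0.155 reads. The WT lists without it had medians of 5 and 5 on floors of 0.195 and 0.243. What part of the counts over the floor comes from this choice of sites was not tested. The spread between libraries could not be measured, so no test was made.

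Of the 18 sites, 4 also had an interval in all 4 K185R lists. On chromosome 12 at 13153082 to 13153416, with 23 RB reads, WT V5 gave 11, 14, 27 and 23 reads. K185R V5 gave 16, 15, 13 and 8 there. On chromosome 3 at 67705023 to 67705175, with 13 RB reads, WT gave 8, 10, 19 and 17 and K185R 8, 5, 10 and 5. On chromosome 6 at 18264321 to 18265134, with 38 RB reads, WT gave 15, 16, 23 and 19 and K185R 10, 12, 11 and 6. These sites were chosen because their WT values did not overlap, so their K185R values are given beside them as a description and not as a contrast. The last of the 4 lay on chromosome 8 at 141521847 to 141522527, where WT gave 14, 13, 26 and 26 and K185R 11, 16, 20 and 12, in the same order. Among the sites with fewer K185R lists, chromosome 1 at 113498850 to 113499071 had WT reads of 12, 12, 21 and 18, with K185R intervals of 7 reads untreated and 7 with doxycycline and none in the lists with GSK2879552.

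The same comparison for K185R gave other counts. Of the 25 low-background members in all 4 K185R lists with a low K185R background, 0 had more reads in both GSK2879552 lists than in both lists without it, and 10 had fewer. Over the 474 C4-2 RB intervals in all 4 K185R lists the shares were 0.844% higher and 65.8% lower. At the 20 low-background members present in all 8 lists with low background in each, WT reads were higher at 4 and lower at 6. K185R reads at these 20 were higher at 0 and lower at 8. Divided by the floor, WT reads at the 20 were higher at 9 and lower at 0, and K185R reads higher at 3 and lower at 3. With reads divided by the floor, K185R was higher at 4 of the 25 and lower at 3, where 17.3% of the 474 were higher and 10.8% lower. The difference between WT and K185R was not tested, and K185R intervals were part of the choice of sites.

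RB in VCaP, also used by the rule, had a median of 25 summit reads at members, 20 at low background and 82 at high background. High background in C4-2 often went with high background in VCaP: 108 of the 157 sites had a VCaP background of at least 10 times its floor, against 0 of the 268. Spearman's rho between C4-2 and VCaP summit reads was 0.37 over the 268 and 0.75 over the 157 sites, given as a description. The sites share their libraries, and neighbouring sites share VCaP intervals, with 394 of them assigned to the 425 sites.

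V5 and RB summits lay close together at members. The median distance was 34 bases for the untreated K185R list at low background, 26 with doxycycline, 35 with GSK2879552 and 28 with both. For WT the medians were 26, 37, 45 and 45 bases. At the 61 sites in all 4 K185R lists they were 9 to 15 bases for K185R, and at the 207 sites in 1 to 3 lists 45.5 to 72. Between 77.6% and 87.6% of K185R summits at low-background members were within 100 bases of the RB summit. The smallest V5 intervals were 152 to 194 bases wide. Overlap with a K185R interval chose the members, so short K185R distances are in part set by the rule. Distances at other RB sites with V5 are not given, so the closeness is not shown to be particular to members.

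The members were set beside the other C4-2 RB sites in background, position and RB strength, with no test. High background was found at 0.503% of the 795 sites of both lines with V5 in WT only, at 0.619% of the 4200 sites of both lines with no V5 and at 15.1% of the 1103 sites of C4-2 alone with V5. Shares within 1 Mb of the interval-free stretch were 38.8% for members, 1.13%, 1.21% and 38.6% in the same order, the last value being close to that of the members. Among low-background sites the median of RB reads was 20 at members, 17 at sites with V5 in WT only and 14 with no V5. It was 18 at C4-2 sites with V5 that VCaP lacked. The widths of low-background RB intervals had medians of 251.5, 228, 175 and 146 bases in this order.

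**Figure D5:**
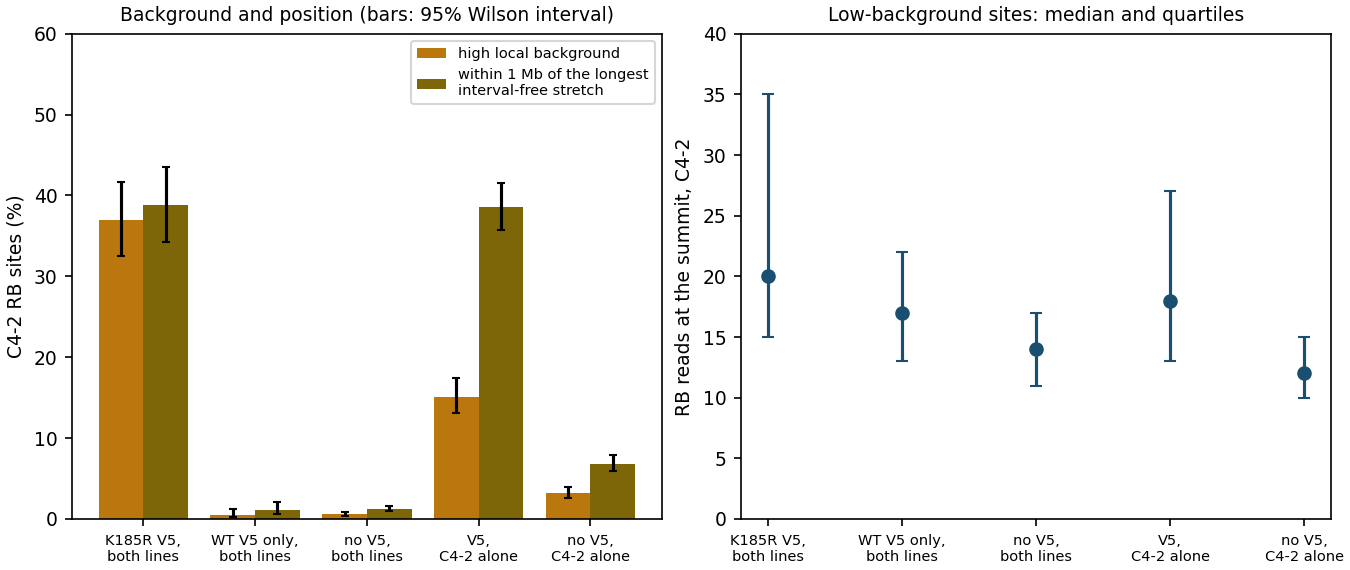
Left, bars give the percentage of C4-2 RB sites with high local background and of those within 1 Mb of the longest interval-free stretch of their chromosome, by class, with 95% Wilson intervals over sites. Right, points give the median RB reads of low-background sites and bars the quartiles, with 20 reads at members (15 to 35) and 14 at sites of both lines without V5 (11 to 17).

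At the edge of the overlap criterion, the least overlapping members shared 11 bases with a K185R interval on chromosome 1 at 157933530 to 157933650 (14 RB reads, 5 K185R reads untreated) and 14 bases on chromosome 2 at 232379250 to 232379408 (20 RB reads, 4 K185R reads with GSK2879552). Just outside, an RB site on chromosome 11 at 17298196 to 17298338 (16 RB reads) abutted a GSK2879552 K185R interval with 0 bases between them. Another on chromosome 7 at 26903805 to 26904024 (16 RB reads) was 1 base away from one. Of the 4995 sites of both lines that were no members, 14 lay within 100 bases of a K185R interval.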

How the data were processed

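The labels give 19 libraries in 10 groups, and the authors deposited 1 interval list per group. The build hg19 and the tools MACS2 2.1.0, BWA 0.7.9a, SAMtools 1.2 and FastQC 0.11.9 come from the submitters' processing notes. The sources used here give no settings, duplicate removal or control libraries. Interval names say that V5 libraries were merged. The deposited values are a score, a fold (a linear ratio of summit reads to local background, 1 read added to both), a −log10 p and a −log10 q per interval, and the summit offset. Folds and scores were used within a list only. Summit reads and background were solved from fold and p (P(X > reads), Poisson). The −log10 p computed back from the solution was within 0.000163 of each deposited one, and the solution was tested on simulated data. The floor is the lowest background that 5 or more intervals have in common. PCR reads without molecular identifiers are not independent molecules, so Wilson intervals cover counting error over sites only. Depth is the floor per smallest interval width.

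Members and lists were chosen with earlier results of these data known. Named regions are the 10 low-background members with the most K185R lists (ties by −log10 q of RB), the 5 low-background members without WT intervals and the 5 high-background members of highest −log10 q, and the 2 nearest the overlap limit on each side. Regions in other places were chosen after their values were seen. Gene lists and motifs had been fixed but were not used, since no hg19 annotation or sequence was used here. Python 3.11.15, SciPy 1.17.1 and pandas 2.3.3 were used.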

Additional observations from a re-analysis of the deposited data

How the results depend on the processing

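The number of members was 425. It was 193 when each overlap had to cover 50% of both intervals, 240 with summits within 100 bases, 226 at −log10 q of at least 5, 222 without RB sites and V5 intervals of high background, 266 with at least 2 K185R lists and 256 with only the K185R lists with doxycycline, an alternative added after seeing the data. The share of members in all 4 K185R lists, 39.5%, became 61.9% at −log10 q of at least 5, 11.3% without high background and 63.2% with at least 2 lists. The share with a WT interval, 88.0%, became 93.8%, 82.9% and 96.2% under these settings, 90.8% without the K185R GSK2879552 list and 93.8% with only the doxycycline lists. The share of high background, 36.9%, became 44.0% with 50% overlap, 59.7% at −log10 q of at least 5, 53.8% with at least 2 lists, 43.6% without the K185R GSK2879552 list, 54.7% with only the doxycycline lists and 45.6% at 5 times the floor. The share in the WT doxycycline list, 63.5%, became 38.3% without high background. The median RB fold, 6.04, became 6.66 by summits, 5.63 at −log10 q of at least 5 and 6.98 without high background. The median distance between K185R and RB summits, 33 bases, became 24, 25.5 and 47 with 50% overlap, at −log10 q of at least 5 and without high background. The cause was not tested. The 18 members with more WT reads in both GSK2879552 lists became 36 with reads divided by the floor, and 30 and 34 of 53 when 1 untreated or 1 doxycycline pair of lists was compared alone; divided by the smallest width they were 14. These 4 alternatives were added after seeing the data. Shares at gene starts and motifs, and their alternatives, were not run, and the distance between summits and the share of high background were not computed where the setting itself fixes them. Leaving out a replicate was not possible with 1 list per group. No paired analysis was possible because each group is 1 list whose columns carry no replicate number. Depth limits the V5 lists: at low-background members with 1 to 3 K185R lists their median summit held 6 to 10 reads.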

Other observations

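The low-background members were spread over 24 chromosomes, from 25 on chromosome 1 and 22 on chromosome 7 to 3 on chromosome 13. As a share of the low-background RB sites of both lines on the chromosome they made up 2.08% on chromosome 19, 2.43% on chromosome 15, 4.91% on chromosome 1 and 12.2% on chromosome X. On chromosome Y they made up 80.0%, a share that rests on few sites. There were 22 RB sites of both lines there, and 4 of the members had low and 12 had high background. Chromosome 10 held 27 high-background members, chromosome 2 held 24 and chromosome 16 held 17. The mitochondrial genome, where C4-2 had 5 RB intervals, all of them shared with VCaP, held 3 members, all of high background. Chromosomes 12, 13, 14, 15, 20, 22, 3 and 9 held 0 high-background members.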
